A study of Homo sapiens with 4 samples.

Results

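The genes described here belong to the large families of E3 ubiquitin ligases and their substrate receptors, measured in SH-SY5Y cells after 24 h with origamicin at 30 µM. Members were taken by gene symbol: every symbol starting with FBXO, FBXL, FBXW or PDZRN, or with TRIM, RNF or KLHL followed by a digit. This gave 232 genes of the 14884 that the array annotation names. The rule reads symbols only, but the families were chosen with earlier results of these data known. They comprise 33 FBXO, 16 FBXL, 10 FBXW, 61 TRIM, 74 RNF, 36 KLHL and 2 PDZRN symbols. RefSeq classes 222 of the 232 as protein coding, and the others are 7 long noncoding RNAs and 3 pseudogenes whose symbols carry a family name. SH-SY5Y is an established human neuroblastoma line of sympathetic lineage, and per the study's title origamicin blocks protein disulfide isomerase, an enzyme that helps proteins fold in the endoplasmic reticulum (ER). The treated group was 2 cultures kept in 30 µM origamicin for 24 h, and the mock group was 2 cultures kept in the solvent methanol for as long. All 4 came from the same line and the same serum-containing medium. Each culture was read on 1 Affymetrix Human Gene 2.0 ST array, and the replicates are labelled biological with no word on separate passages. The p-values below therefore rest on array-to-array spread, which may be technical.

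An E3 ligase picks the protein that receives ubiquitin and brings it to a ubiquitin-loaded E2 enzyme, and chains of ubiquitin often send the protein to the proteasome. Most RNF, TRIM and PDZRN proteins carry a RING domain that binds the E2 directly. F-box proteins (FBXL with leucine-rich repeats, FBXW with WD40 repeats, FBXO with other domains) hold the substrate for the SCF complex, which is built on the scaffold CUL1 and the adaptor SKP1, and KLHL proteins do the same on the scaffold CUL3. In neurons, members of these families are known for roles in axon growth and at the synapse, and several RNF proteins sit in the ER membrane, where they mark proteins for degradation.

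The upstream sequences of PDZRN3, the member with the largest change, and of its paralog PDZRN4 are shown first because they form 1 family and share sequence ahead of the start, while only PDZRN3 was bright enough to be tested. Both are the 250 bases before an annotated start, from RefSeq on GRCh38.p14, printed 5′ to 3′ on the gene's strand. PDZRN3 has 5 annotated starts, and the window shown (chr3:73433996-73434245, minus strand) is the one of the 5 that aligned best with the only window of PDZRN4 (chr12:41437489-41437738, plus strand). Capitals mark runs of at least 6 identical bases in that local alignment.
PDZRN3: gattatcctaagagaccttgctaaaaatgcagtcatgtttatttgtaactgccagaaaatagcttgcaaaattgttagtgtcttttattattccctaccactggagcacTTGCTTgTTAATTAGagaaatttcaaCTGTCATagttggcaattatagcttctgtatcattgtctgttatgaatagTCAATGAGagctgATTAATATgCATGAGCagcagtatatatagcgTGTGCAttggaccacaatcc
PDZRN4: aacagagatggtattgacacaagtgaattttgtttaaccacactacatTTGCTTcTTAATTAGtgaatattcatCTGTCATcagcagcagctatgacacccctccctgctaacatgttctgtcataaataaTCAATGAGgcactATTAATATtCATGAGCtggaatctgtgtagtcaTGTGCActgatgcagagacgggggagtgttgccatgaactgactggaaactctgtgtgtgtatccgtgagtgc
The alignment covered 171 columns, 116 of them identical (67.8%) and 14 with a gap. The other 4 PDZRN3 windows gave alignments of 11 to 64 columns with PDZRN4. Both windows shown lie inside their genes (PDZRN3 chr3:73382431-73624941, PDZRN4 chr12:41188320-41574745). The PDZRN3 window just outside the gene's 5′ end (chr3:73624942-73625191) aligned over 11 columns only. Which of the 5 starts is used in these cells is not measured by the array.

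Among the 232 members, 202 were bright enough to be tested: their mean over the 4 arrays reached 3.82 on the log2 scale, the 40th percentile of all probe sets. Values are log2 signals normalized by robust multi-array averaging (RMA), and a level of 1 gene cannot be set against that of another because their probes differ. Changes are log2 differences, origamicin minus mock, from a limma fit over all 11883 genes tested, each with its moderated standard error (SE) over 2 arrays per group. In that fit no member passed an adjusted p of 0.05, as was true of all 11883 genes (0% called), and PDZRN3 was the only member under an adjusted p of 0.1 (0.446% of all genes). At an unadjusted p under 0.05 there were 28 members, 13.9% of the 202, beside 16.4% of all genes tested, so that as a group these families were not called more often than the background. Of the 28, 10 stood higher (7.99% of all genes did) and 18 lower (8.42% of all genes). When limma was allowed to model the spread as a function of signal (an intensity trend), 5 members passed an adjusted p of 0.05, 2.48% of the 202, against 4.30% of all genes. Of the 5, RNF213, RNF152 and RNF145 rose (2.14% of all genes did), and PDZRN3 and FBXW8 fell (2.16% of all genes). With a stricter filter at the 60th percentile and no trend, 2 members passed, PDZRN3 and RNF213, where 0.993% of all genes did.

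Changes of the members as a whole were small. Their median log2 change was -0.02, with an interquartile range of -0.12 to 0.09, and over all genes tested the median was -0.01, with an interquartile range of -0.11 to 0.10. The median absolute change was 0.11 for the members and 0.11 for all genes. A change of at least 0.5 in size was measured for 3 of the 202 (PDZRN3, RNF152 and TRIM64B), and for 2.20% of all genes. The 95% interval of a member's change reached 0.21 to either side in the median member.

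**Figure D1:**
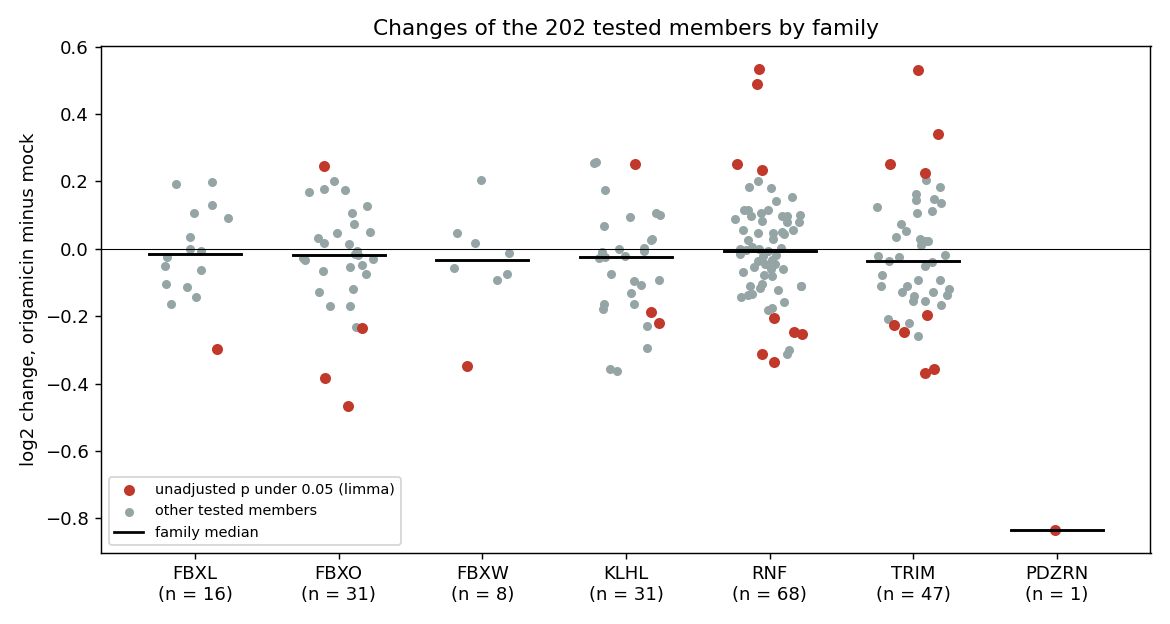
Log2 change (origamicin minus mock, vertical axis) of each of the 202 tested members by family, with those at an unadjusted limma p under 0.05 in red and a line at each family's median. The medians of the 6 larger families lie between -0.04 and -0.01, and PDZRN3, alone in its column, lies at -0.83.

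PDZRN3, a RING ligase with PDZ domains known in mouse for its part at the neuromuscular junction, had the largest change of any member. It read 6.03 and 6.02 in the origamicin cultures, against 6.78 and 6.93 in the mock cultures. The groups lay far apart, and the origamicin arrays were almost equal. Its level was 1.78-fold lower after origamicin (log2 change -0.83 ± 0.08 SE, 95% interval -1.05 to -0.62, adjusted p = 0.095 in the limma fit and 0.0081 with an intensity trend). PDZRN4, the other member of the family, was dim at 2.40 and 2.30 in origamicin cells, against 2.78 and 2.63 in mock cells. These values lie far under the filter of 3.82, so PDZRN4 was not tested and its difference has no test.

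RNF213, a very large protein that joins an AAA+ ATPase to a ligase, is induced by interferon and known as the susceptibility gene of moyamoya disease. It read 7.83 and 7.86 with origamicin, against 7.38 and 7.33 in mock cells. Both origamicin arrays lay above both mock arrays by more than the spread within either group. The level was 1.40-fold higher (0.49 ± 0.07 SE, adjusted p = 0.128 in the limma fit and 0.013 with an intensity trend). The antisense transcript annotated at this gene, RNF213-AS1, stood at -0.12 ± 0.19 SE.

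RNF152, a lysosomal membrane ligase known to ubiquitinate RagA and so restrain mTORC1, read 8.59 and 8.41 in the origamicin cultures, against 8.02 and 7.92 in the mock cultures. Its arrays differed among themselves more than those of RNF213, yet the groups did not overlap. The change was 0.53 ± 0.09 SE (1.45-fold, adjusted p = 0.167 in the limma fit and 0.016 with an intensity trend). RNF145, an ER ligase known to act on enzymes and regulators of sterol synthesis, read 9.52 and 9.54 with origamicin, against 9.30 in both mock cultures. Its change was small, and the arrays of each group were almost equal. It came to 0.23 ± 0.06 SE (1.18-fold, adjusted p = 0.215 in the limma fit and 0.035 with an intensity trend).

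FBXW8, the F-box protein of the CUL7 ligase, was the only F-box gene to pass with the intensity trend. It read 9.16 and 9.14 in origamicin cells, against 9.52 and 9.48 in mock cells, and the groups were clearly apart. The level was 1.27-fold lower (-0.35 ± 0.06 SE, adjusted p = 0.169 in the limma fit and 0.014 with an intensity trend). Its scaffold CUL7 stood at -0.11 ± 0.07 SE.

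With any 1 array left out, all 5 changes kept their sign. PDZRN3 ranged from -0.91 to -0.76 and FBXW8 from -0.37 to -0.33. RNF213 ranged from 0.46 to 0.52, RNF152 from 0.44 to 0.62 and RNF145 from 0.22 to 0.24. Such a fit leaves 1 array in a group. The 5 genes did not all pass with the intensity trend in these fits, where fewer of all genes passed too.

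**Figure D2:**
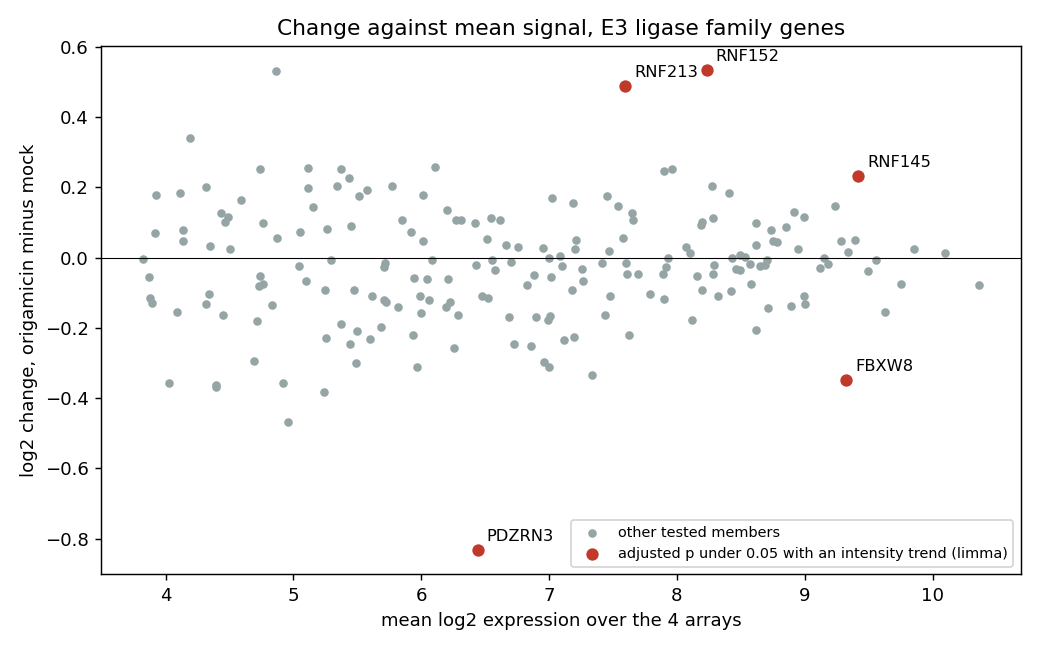
Log2 change (origamicin minus mock) of the 202 tested members against their mean log2 expression over the 4 arrays. The 5 named genes in red passed an adjusted p of 0.05 with an intensity trend, and TRIM64B, at a change of 0.53 on a dimmer signal, did not.

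The upstream windows of FBXW8 and RNF145 are given because each holds CACGTG, the core of the E-box bound by several basic helix-loop-helix factors, among them MYC. They are again 250 bases before an annotated start, from RefSeq on GRCh38.p14, with the motif in capitals. FBXW8 has 1 annotated start (window chr12:116910700-116910949, plus strand), and RNF145 has 5, of which the 1 with the motif is shown (chr5:159209554-159209803, minus strand). That RNF145 window lies inside its gene (chr5:159157409-159210053).
FBXW8: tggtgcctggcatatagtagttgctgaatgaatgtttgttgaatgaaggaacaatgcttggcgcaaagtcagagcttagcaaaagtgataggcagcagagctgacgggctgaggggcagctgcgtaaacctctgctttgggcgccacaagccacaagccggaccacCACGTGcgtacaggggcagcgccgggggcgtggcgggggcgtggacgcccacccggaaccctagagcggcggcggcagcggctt
RNF145: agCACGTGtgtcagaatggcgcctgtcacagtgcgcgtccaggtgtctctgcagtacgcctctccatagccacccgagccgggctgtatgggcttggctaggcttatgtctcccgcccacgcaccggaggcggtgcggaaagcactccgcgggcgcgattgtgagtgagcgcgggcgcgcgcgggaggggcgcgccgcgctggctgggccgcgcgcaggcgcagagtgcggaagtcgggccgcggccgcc
The motif reads the same on both strands. It starts 84 bases before the start in FBXW8 and 248 bases before it in RNF145. Of the 35116 windows of this length in the table, 2228 (6.34%) hold it, and of the 258 windows of 183 matched members, 17 do (6.59%). PDZRN3 has the motif in 1 of its 5 windows, not the one printed above, and RNF213 has none in its window. No window of RNF152 was available, so the motif was not looked for there. FBXW8 fell and RNF145 rose, so that windows with the motif are found on both sides.

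Among the F-box genes of the FBXO family, 31 of 33 were tested. The median change was -0.02, with 1 gene higher and 3 lower at an unadjusted p under 0.05 (12.9%, beside 16.4% of all genes). FBXO4, an SCF receptor reported to act on cyclin D1, read 4.78 and 4.67 with origamicin, against 5.14 and 5.24 in mock cells, a change of -0.47 ± 0.08 SE. FBXO24 read 5.11 and 4.99 with origamicin, against 5.42 and 5.44 in mock cells (-0.38 ± 0.08 SE). Both genes were apart in the 2 groups but dim, and with an intensity trend their adjusted p in limma was 0.103 and 0.138. FBXO22, a receptor known to act on BACH1, a repressor of antioxidant genes, and on p53, was the FBXO member on the higher side. It read 7.99 and 8.06 with origamicin, against 7.72 and 7.84 in mock cells (0.25 ± 0.08 SE). The second FBXO22 probe set, which is dimmer, differed by 0.21 in the same direction, but its groups overlapped. That probe set read 6.09 and 6.24 with origamicin, against 6.14 and 5.77 in mock cells. FBXO5, also called EMI1, which inhibits the anaphase-promoting complex, read 6.94 and 7.06 with origamicin, against 7.23 and 7.24 in mock cells (-0.23 ± 0.07 SE). The FBXO genes with the highest mean signal did not reach that threshold: FBXO11 stood at 0.01 (95% interval -0.16 to 0.19) and FBXO8 at -0.07 (-0.26 to 0.11).

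F-box genes of the group that includes receptors of sugar chains on glycoproteins are of interest where protein folding in the ER is the target. FBXO2 stood at -0.03 ± 0.10 SE, FBXO6 at 0.20 ± 0.13, FBXO27 at 0.17 ± 0.12 and FBXO44 at -0.13 ± 0.07. None of the 4 reached an unadjusted p of 0.05, and they lay on both sides of 0.

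In the FBXL family all 16 members were tested and 1 reached an unadjusted p of 0.05 (6.25%, beside 16.4% of all genes). This was FBXL14, known to act on the transcription factor SNAI1 and its relatives, which read 6.74 and 6.88 with origamicin, against 7.12 and 7.10 in mock cells (-0.30 ± 0.08 SE, adjusted p = 0.214 in limma). The groups did not overlap, and the origamicin arrays differed by more than the mock arrays. FBXL19, which binds CpG islands through a zinc finger, stood at -0.16 ± 0.07. FBXL4, a mitochondrial receptor known to limit the mitophagy receptors BNIP3 and NIX, stood at -0.14 ± 0.07, and FBXL7 at 0.13 ± 0.07. In the FBXW family 8 of 10 members were tested. Besides FBXW8 none reached an unadjusted p of 0.05 (12.5% with it, beside 16.4% of all genes): FBXW5 stood at -0.09 ± 0.07, FBXW11, a receptor for β-catenin and IκB, at -0.08 ± 0.10 and FBXW2 at 0.02 ± 0.07.

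Of the 36 KLHL genes, receptors of CUL3, 31 were tested, with a median of -0.03. Of these, 20 were lower and 11 higher (35.5%, beside 41.6% of all 202 tested members and 47.9% of all genes). The share higher was 37.5% in the FBXL and in the FBXW family, so the tilt was not particular to KLHL genes. At an unadjusted p under 0.05 there were 3 (9.68%, beside 16.4% of all genes), among them the noncoding KLHL7-DT (-0.19 ± 0.07 SE). KLHL28 read 5.47 and 5.52 with origamicin, against 5.24 and 5.25 in mock cells (0.25 ± 0.06 SE). KLHL8 read 7.49 and 7.54 with origamicin, against 7.75 and 7.72 in mock cells (-0.22 ± 0.06 SE). The groups were apart for both genes, in opposite directions. KLHL22, known for a part in mitosis, stood at 0.17 ± 0.07 SE, KLHL20 at -0.13 ± 0.07 and KLHL24 at 0.03 ± 0.10.

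In the RNF family 68 of 74 members were tested and 9 reached an unadjusted p of 0.05 (13.2%, beside 16.4% of all genes), 4 higher and 5 lower. Beside RNF213, RNF152 and RNF145, the fourth on the higher side was RNF111, called Arkadia, which promotes TGF-β signalling by removing its inhibitors. It read 8.11 and 8.07 with origamicin, against 7.87 and 7.81 in mock cells (0.25 ± 0.07 SE), and its adjusted p with an intensity trend was 0.062 in limma. RNF25, which takes part in the response to stalled ribosomes, stood at 0.20 ± 0.08. On the lower side, RNF170, an ER ligase for the IP3 receptor, read 7.10 and 7.24 with origamicin, against 7.48 and 7.54 in mock cells (-0.34 ± 0.08 SE). RNF139, another ER membrane ligase, known as TRC8, read 6.73 and 6.96 with origamicin, against 7.08 and 7.22 in mock cells (-0.31 ± 0.11 SE). RNF181 (-0.25 ± 0.07), RNF182 (-0.25 ± 0.08) and RNF122 (-0.21 ± 0.06) were the other 3. RNF114, which has a high mean signal in the family, stood at 0.05 (95% interval -0.12 to 0.22).

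Ligases of the ER and of other membranes were found on both sides. Of 31 genes on that list, 27 are named on the array and 25 were tested, with 12 higher and 13 lower and a median of -0.01. The 6 with an unadjusted p under 0.05 were 2 higher (RNF152 and RNF145) and 4 lower (RNF170, RNF182, RNF122 and RNF139), 24.0% of the 25 beside 16.4% of all genes. The other tested genes of the list did not reach that threshold and ranged from -0.31 to 0.20, with RNF175 lowest (-0.31 ± 0.12 SE, unadjusted p = 0.052 in limma). Among them were RNF185 (0.15 ± 0.09 SE), RNF121 (0.18 ± 0.10), RNF103 (0.03 ± 0.07), TRIM13 (-0.12 ± 0.07) and RNF215 (-0.14 ± 0.07).

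**Figure D3:**
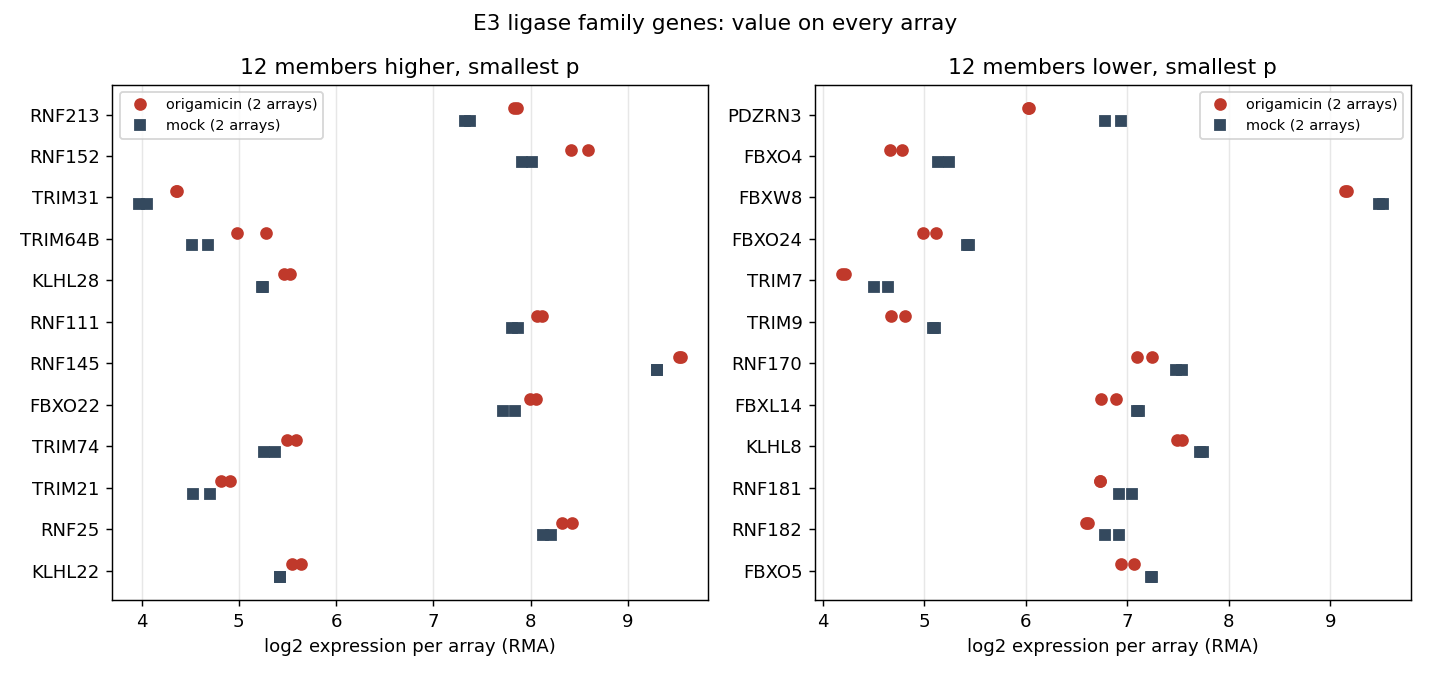
Log2 expression on every array (horizontal axis, RMA values) for the 12 tested members with the smallest limma p on the higher side (left) and on the lower side (right), with origamicin arrays as red circles and mock arrays as dark squares. In every row the 2 origamicin values lie on the same side of the 2 mock values, which the choice by p favours, with the widest gap for PDZRN3.

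The TRIM family had 47 tested members of 61, and the 14 left out as dim were the most of any family. At an unadjusted p under 0.05 there were 9 (19.1%, beside 16.4% of all genes), 4 higher and 5 lower. TRIM31, a ligase of antiviral signalling, read 4.37 and 4.35 with origamicin, against 3.98 and 4.06 in mock cells (0.34 ± 0.07 SE). TRIM21, the cytosolic antibody receptor, read 4.82 and 4.91 with origamicin, against 4.53 and 4.70 in mock cells (0.25 ± 0.09 SE). Both were dim, and neither passed with an intensity trend (adjusted p = 0.269 and 0.388 in limma). TRIM64B (0.53 ± 0.13 SE) and TRIM74 (0.23 ± 0.08) completed the higher side. They belong to groups of near-identical copies, and their values are uncertain because probes may be shared between copies, which was not tested. For TRIM64B, the copies TRIM64 and TRIM64C, too dim to be tested, lay lower by 0.26 and 0.31 in origamicin cells (differences of -0.26 and -0.31).

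On the lower side of the TRIM family, TRIM9, a neuronal ligase of netrin-guided axon branching, read 4.81 and 4.67 with origamicin, against 5.11 and 5.09 in mock cells (-0.36 ± 0.08 SE). TRIM7, a binding partner of glycogenin, read 4.19 and 4.22 with origamicin, against 4.51 and 4.65 in mock cells (-0.37 ± 0.08 SE). The groups were apart for both, on dim signals. TRIM32 (-0.23 ± 0.08), TRIM40 (-0.25 ± 0.08) and TRIM62 (-0.20 ± 0.06) were the other 3. The TRIM genes with the highest mean signal did not reach that threshold: TRIM28, the co-repressor KAP1, stood at -0.08 (95% interval -0.26 to 0.10) and TRIM37 at 0.02 (-0.14 to 0.19).

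Several TRIM genes and RNF39 lie on chromosome 6 and have 5 to 8 named probe sets each, some with identical values on all 4 arrays, so these probe sets are not independent measurements. All 5 TRIM31 probe sets were higher with origamicin, by 0.28 to 0.34, and all 8 of TRIM15 by 0.16 to 0.24. All 8 TRIM40 probe sets were lower (differences of -0.25 to -0.16), and all 7 of RNF39 (-0.12 to -0.03). TRIM27 and TRIM10 had probe sets on both sides of 0. Outside chromosome 6, the probe sets of RNF185 differed by 0.15 and 0.23, while those of RNF26 (-0.14 and 0.02) and of KLHL42 (-0.09 to 0.16) went both ways.

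Members grouped by role gave mixed pictures. In the innate immunity and interferon list, 18 of 26 were tested, 10 higher and 8 lower, with a median of 0.03. RNF213, TRIM31 and TRIM21 stood higher and TRIM62 lower at an unadjusted p under 0.05 (22.2% of the 18, beside 16.4% of all genes), and TRIM25, the ligase of RIG-I, stood at -0.02 ± 0.06 SE. In the cell cycle list, 16 of 21 were tested, 8 on each side, and FBXL14 and FBXO5 were the 2 at an unadjusted p under 0.05 (12.5%, beside 16.4% of all genes). In the DNA damage and p53 list, 11 of 23 were tested, and RNF111 and FBXO22 stood higher and TRIM32 lower at that threshold, 3 of 11 beside 16.4% of all genes. In the neuronal list, 20 of 24 were tested, and 15 were lower, with a median of -0.04. On this list 25% were higher, beside 47.9% of all genes. PDZRN3, TRIM9, RNF182 and TRIM32 were its 4 members at an unadjusted p under 0.05, all lower, where 8.42% of all genes were called lower. Some genes stand on more than 1 of these lists.

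Markers of the line itself also differed between the groups. With an intensity trend, 7 noradrenergic markers fell at an adjusted p under 0.05 in limma (43.8% of the 16 tested, beside 2.16% of all genes). The largest falls were those of CHGA (-0.80), CHGB (-0.76) and DDC (-0.59). At the same threshold 4 mesenchymal markers rose (30.8% of the 13 tested, beside 2.14% of all genes). Of 20 noradrenergic neuroblastoma markers, 16 are named here and 14 were lower, and the sum of their log2 values was 147.1 and 147.3 in the origamicin cultures, against 150.8 and 151.5 in the mock cultures. Of 17 mesenchymal markers, 14 are named and 11 of 13 tested were higher, with sums of 89.9 and 88.8, against 86.3 and 86.0 in mock cells. The share higher was 12.5% of the noradrenergic and 84.6% of the mesenchymal markers tested, beside 47.9% of all genes. The sums of 7 glial markers were 33.6 and 33.9, against 33.3 and 33.6 in mock cells. DBH, the enzyme that makes noradrenaline, read 12.38 and 12.33 with origamicin, against 12.53 in both mock cultures, and PHOX2A, a factor of noradrenergic neurons, read 9.68 and 9.60, against 9.83 and 9.84 in mock cells. DBH and PHOX2A did not pass with the trend (adjusted p = 0.056 and 0.075 in limma). TH, the enzyme that starts catecholamine synthesis, read 5.64 and 5.69 with origamicin, against 5.52 and 5.82 in mock cells, and INSM1 read 5.67 and 5.62, against 5.14 and 5.45 in mock cells. RMA values have no 0. Whether the shift in markers has a part in the values of PDZRN3 or of the other neuronal ligases was not tested, and in bulk RNA fewer cells of a type and less RNA per cell cannot be told apart.

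The complexes that the F-box and KLHL receptors plug into were examined from a list of 40 cullins, adaptors, NEDD8 enzymes, exchange factors, COP9 signalosome subunits and receptors or E2 enzymes with other names, of which 29 were tested and 1 (RNF7) is also a member. Of the 29, 25 were lower by some amount, with a median of -0.07, where 47.9% of all genes tested were higher by some amount. The unadjusted p was under 0.05 for 1 on the higher and 3 on the lower side (13.8% of the 29, beside 16.4% of all genes). KEAP1, the CUL3 receptor that holds the transcription factor NRF2 in check, read 8.60 and 8.50 with origamicin, against 8.14 and 8.18 in mock cells. It rose with an intensity trend (0.39 ± 0.07 SE, adjusted p = 0.018 in limma) and did not pass without it (adjusted p = 0.168). The 3 on the lower side were the exchange factor CAND2 (-0.21 ± 0.07), cyclin F, the F-box protein encoded by CCNF (-0.27 ± 0.09), and the COP9 subunit COPS7B (-0.22 ± 0.07). The scaffolds CUL1 (-0.07 ± 0.07 SE) and CUL3 (-0.08 ± 0.08) and the F-box protein BTRC (-0.02 ± 0.06) stood within their error of 0 or close to it.

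**Figure D4:**
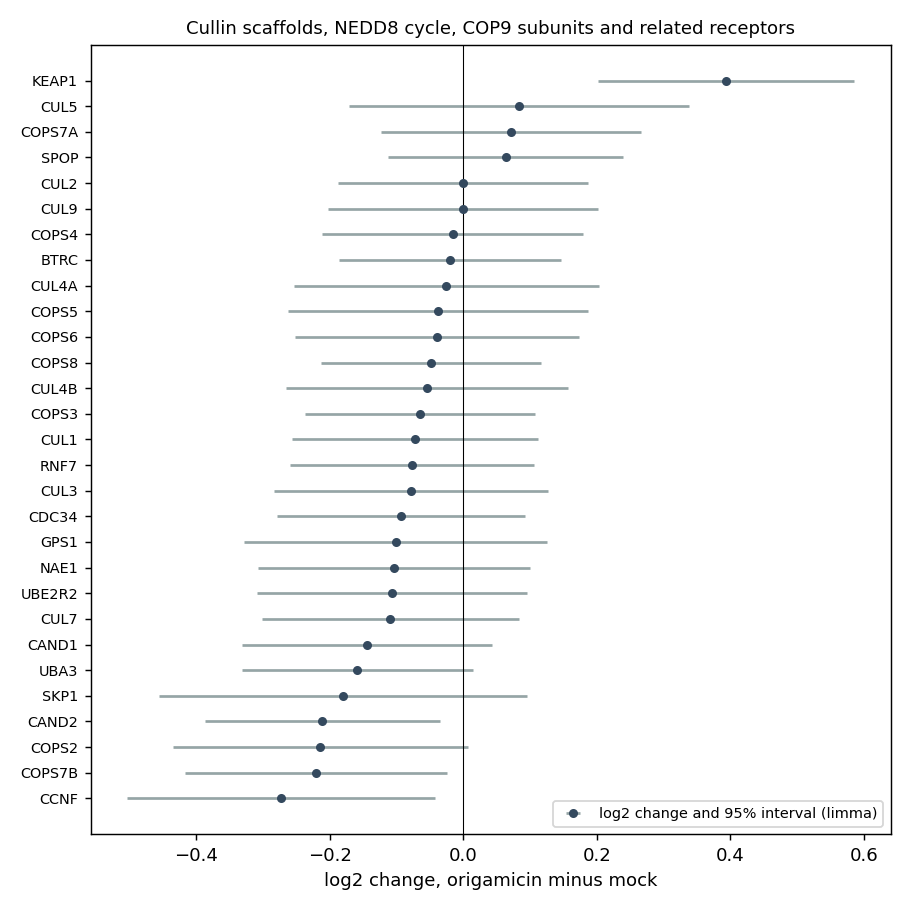
Log2 change (origamicin minus mock, horizontal axis) with its 95% interval from limma for the 29 tested genes of the cullin list. KEAP1 lies highest at 0.39, the intervals of CAND2, COPS7B and CCNF lie below 0, and the remaining 25 intervals include 0.

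The 30 members left out as dim were 14 TRIM, 6 RNF, 5 KLHL, 2 FBXO, 2 FBXW and 1 PDZRN genes, with means down to 1.75 on the log2 scale (RNF133). They include TRIM5 (3.82) and TRIM22 (3.28), antiviral ligases, and KLHL1 (3.58), a neuronal receptor. TRIM5 lay just under the filter, and RNF222 (3.83) lay just above it. For these 30 the difference between groups was not tested.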

How the data were processed

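RNA from 2 origamicin and 2 mock cultures of SH-SY5Y was read on 4 arrays. The authors deposited log2 expression values per probe set. Per the submitters' processing notes the tools were RMA and limma, with no version. The build and annotation used were not given in the sources used here. Array medians of the deposited log2 values lay between 4.37 and 4.42, and no further normalization was done. Arrays have no counting depth, so their number limits the precision.

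The table held 53617 probe sets, 16098 of them named with 1 gene by the platform annotation, none with several, and 37519 unnamed here. Per gene the probe set with the highest mean was kept, and genes with a mean under 3.82 (40th percentile) were left out, leaving 11883. The origamicin minus mock contrast was fitted over all 4 arrays in limma 3.58.1 (R 4.3.3), two-sided with no covariate and a single prior variance, with Benjamini-Hochberg adjustment over the 11883 genes at a threshold of 0.05. The fit was also run on simulated data whose spread depended on mean signal alone, and no result here rests on that run. The alternatives were a replicate block, other filters, quantile normalization, equal array medians, the mean of probe sets, an intensity trend, robust eBayes and each array left out.

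Members, gene lists and tests were chosen with earlier results of these data known. Genes named were the 12 members with the smallest p on each side, the 2 with the smallest p and the 2 with the highest mean of each family, both PDZRN genes and the 2 with the smallest p of each role list. The remaining members at an unadjusted p under 0.05, the F-box genes of the glycoprotein receptor group and other examples were named after their values were seen. Upstream sequences came from RefSeq (GRCh38.p14), which matched 183 of the 232 members.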

Additional observations from a re-analysis of the deposited data

How the results depend on the processing

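The count of 0 members at an adjusted p under 0.05 became 5 with an intensity trend and 2 with the 60th percentile filter (PDZRN3 and RNF213, adjusted p = 0.033 and 0.049 in limma, where 0.993% of all genes passed). It was 0 under every other alternative run, the replicate block and robust eBayes included, and 0 to 0 with any 1 array left out. At an unadjusted p under 0.05 the 28 members became 17 to 25 with 1 array left out, 18 without mock replicate 1 and 17 without mock replicate 2. Fewer of all genes reached that threshold too in the fits with 1 array left out, so the drop is not particular to the members. The other alternatives gave 26 to 33 members, where 12.9% to 21% of all genes reached it, beside 16.4% in the main fit. The fits that combine the trend with another choice, and those of the median, were chosen after seeing the data. The intensity trend alone called 5 members and 4.3% of all genes. With the trend kept, the replicate block (2.33% of all genes) and equal array medians (4.47%) each called 4 members. Each lost RNF145 (adjusted p = 0.060 and 0.055 in limma). The 60th percentile filter called 7 members (7.2% of all genes), adding RNF170 (adjusted p = 0.044) and RNF111 (0.048). Quantile normalization called 6 (5.28% of all genes), adding RNF170 (0.045). With 1 array left out, fewer members and fewer of all genes passed. The median change of the members, -0.0204, became -0.0367 with equal array medians (-0.0234 over all genes) and ranged from -0.0395 without mock replicate 1 to 0.0014 without mock replicate 2. Same-numbered arrays did not deviate together (r = -0.02 over genes), and the labels give no pairing, so the arrays share only a number. With the replicate block 27 members had an unadjusted p under 0.05.

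Of the 38 named genes that were tested, 35 kept their sign under all alternatives run. FBXO11 reversed with equal array medians (-0.0019) and without origamicin replicate 2 (-0.0168, up to 0.0454 with another array left out). FBXW2 reversed with equal array medians (-0.000200) and without mock replicate 1 (-0.0399, up to 0.0720). KLHL24 reversed without mock replicate 1 (-0.0854, up to 0.136). The causes of these differences were not tested. Dim members (FBXO4, TRIM21, TRIM31, TRIM64B, TRIM7 and TRIM9) have no value with the 60th percentile filter.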
